A study of Mus musculus with 2 samples.

Results

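The genes examined were 10 actins and actin-related proteins of mouse embryonic stem (ES) cells. They were Actl6a and Actl6b, which encode Baf53a and Baf53b, the cytoplasmic actins Actb and Actg1, and the actin-related genes Actr1a, Actr1b, Actr2, Actr3, Actr3b and Actr10. A probe was assigned to a gene through the RefSeq accession that the array design gives it. By this rule all 10 genes had a probe, with 14 probes among the 39411 usable gene probes, which carried 20823 named genes. Actg1 had 5 probes and each of the other 9 genes had 1, and every one of the 14 probes was printed as a single spot.

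The arrays compare gene expression between cells supplied with Baf53a and cells supplied with its neuronal counterpart in its place. Both groups were made from Baf53a cKO ES cells, 1 clone derived from the E14 line, in which CRISPR/Cas9 had removed 7 bp from one Baf53a allele and 23 bp from the other. The clone carries a CRISPR-resistant Baf53a transgene that tetracycline (Tet) switches off. The cells received a pCAGIP-Myc plasmid, which drives a Myc-tagged protein from a constitutive promoter, with the coding region of either Baf53a (Baf53a-expressing) or Baf53b (Baf53b-expressing). They were divided 48 h after transfection and kept for 6 days in 1 μg/mL Tet, in serum medium with LIF, the cytokine that holds ES cells undifferentiated. The deletions, the Tet-regulated transgene, Tet and LIF were thus shared by both groups, and no empty-vector or untreated array was analysed here. RNA of each group was read on 1 Agilent array of 1 colour, on the same slide and in the same scan. With 1 array per condition no difference has a replicate check, and no test was run.

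Actin is the subunit of the filaments that give a cell its shape and movement, and it also works in the nucleus. Actin-related proteins share its fold and have become parts of larger machines: Arp1 and Arp11 build the dynactin filament that links dynein to its cargo, Arp2 and Arp3 start branched actin filaments, and Baf53a sits beside nuclear actin in the BAF, INO80, TRRAP and p400 chromatin complexes. Baf53a belongs to the BAF complex of dividing progenitors, and neurons replace it with Baf53b when they leave the cell cycle.

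Whether the probes of Actl6a and Actl6b read transcripts of the plasmids, of the chromosomal genes or of both was not tested, since the position of each probe within its gene was not examined here. The chromosomal copies start from promoters of their own, unlike the plasmid copies. The promoter sequences of Actl6a and Actl6b are shown for that reason, and that of Actg1 because it holds a CArG box, the binding site of serum response factor (SRF), a factor that responds to the pool of free actin. Each is the 250 bases before the gene's start from RefSeq on build GRCm38.p6, read 5′ to 3′ on the strand of the gene. The stretches lie at chr3:32708296-32708545 on the plus strand for Actl6a, at chr5:137553296-137553545 on the plus strand for Actl6b and at chr11:120348496-120348745 on the minus strand for Actg1. Capitals mark GGGCGG on either strand in Actl6a, CCAAT on either strand in Actl6b, and the CArG box in Actg1.
Actl6a: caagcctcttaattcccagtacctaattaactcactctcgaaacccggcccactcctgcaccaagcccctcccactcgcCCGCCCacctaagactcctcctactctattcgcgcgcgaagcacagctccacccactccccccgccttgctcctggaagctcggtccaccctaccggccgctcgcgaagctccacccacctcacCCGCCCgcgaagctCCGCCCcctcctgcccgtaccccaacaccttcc
Actl6b: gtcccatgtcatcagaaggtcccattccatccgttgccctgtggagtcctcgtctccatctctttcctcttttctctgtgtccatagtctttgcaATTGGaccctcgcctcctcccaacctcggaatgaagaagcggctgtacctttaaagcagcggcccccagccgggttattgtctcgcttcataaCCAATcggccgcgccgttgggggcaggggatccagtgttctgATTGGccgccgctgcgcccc
Actg1: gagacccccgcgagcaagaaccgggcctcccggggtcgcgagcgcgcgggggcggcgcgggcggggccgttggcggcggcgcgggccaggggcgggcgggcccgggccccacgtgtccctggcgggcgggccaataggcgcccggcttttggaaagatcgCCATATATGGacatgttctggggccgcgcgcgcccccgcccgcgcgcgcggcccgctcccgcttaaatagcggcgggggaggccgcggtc
The Actl6a stretch held GGGCGG 3 times and no CCAAT, and the Actl6b stretch held CCAAT 3 times and no GGGCGG. Over the 32851 mouse promoters of the same length, searched on both strands, 32.7% held GGGCGG and 33.8% held CCAAT. The GC content was 64.8% for Actl6a and 58.0% for Actl6b, with 19 and 15 CpG dinucleotides, against medians of 52.4% and 6 over all promoters. The Actg1 stretch had 43 CpG dinucleotides and a GC content of 79.2%, and its CArG box, CCATATATGG, covered bases 161 to 170. A CArG box, searched by name as its 10-base consensus, was present in 1.47% of all promoters and in 1 of the 8 promoters found for these genes. TATAAA was in none of the 8 and in 12.4% of all promoters. These matches describe letters in the window and do not show binding. Actb and Actr3b had no entry in the promoter table.

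Baf53b mRNA was the one member of the group that separated the conditions. The Actl6b probe read a processed signal, the spot brightness after background subtraction, of 3.40 ± 2.33 in Baf53a-expressing cells and 119 ± 12.1 in Baf53b-expressing cells. The ± values are the errors that the scanner software models for a single spot, not a spread between samples. Before subtraction the median pixel of the spot was 31.5 over a local background of 22.5 in Baf53a-expressing cells, and 145 over 22 in Baf53b-expressing cells. The spot in Baf53a-expressing cells was not well above background by the scanner's flag, so the difference can be given only as a bound. The bound sets the brighter signal against the higher of 2 values of the dim array, the probe's own and the lowest signal that was well above background, here 8.45, after the 75th percentile of each array had been set to 0 on the log2 scale. On that scale Actl6b stood at -3.24 in Baf53b-expressing cells. By this rule its processed signal was at least 14.5-fold higher there, a bound of 3.86 in log2 that depends on the background correction. The measured values were 5.17 apart on the log2 scale, which a weaker detection flag would accept.

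Of all 39411 usable probes, 858 (2.18%) were well above background in Baf53b-expressing cells only. A bound of at least 2-fold was reached by 81 of these 858 probes, or 9.44%, Actl6b among them. In the other direction, 378 probes were well above background in Baf53a-expressing cells only, and 44 of those reached such a bound. Each of these bounds rests on the floor of the dim array or on the probe's own value there, whichever was higher. Their order therefore mixes both and is not given. The 8 gene spots closest to the Actl6b spot on the slide had local backgrounds of 18.5 to 24 (median pixel brightness) on the arrays. The 6 of them that were well above background on both arrays differed by -0.13 to 0.40 on the log2 scale, with a median of 0.10. Correction of the background by normexp, which models the background and adds an offset, gave a bound of 1.52 in log2, where the probe's own compressed value on the dim array was the higher of the 2 and the bound equals the measured difference.

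**Figure D1:**
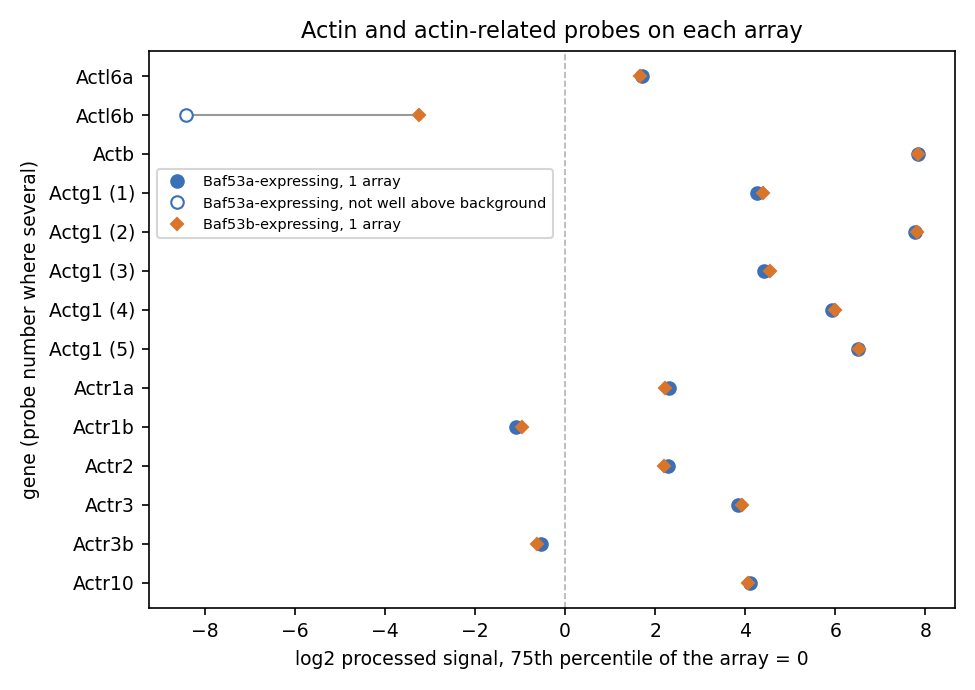
Log2 processed signal of each of the 14 probes (x axis, the 75th percentile of each array at 0) for the 10 genes (y axis, Actg1 with 5 probes) on the 1 array of Baf53a-expressing cells (circles) and the 1 array of Baf53b-expressing cells (diamonds). Actl6b is separated, from -8.42 (open circle, not well above background) to -3.24, and the symbols of every other probe lie within 0.14 of each other.

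The Actl6a probe, in contrast, read almost the same signal whichever plasmid the cells had received. Its signal was 3806 ± 381 in Baf53a-expressing cells and 3600.1 ± 360.0 in Baf53b-expressing cells, or 1.71 and 1.67 relative to the 75th percentile on the log2 scale. The difference, Baf53b- minus Baf53a-expressing cells here and throughout, was -0.04, and it ran from -0.09 to 0.00 across the settings tried. It was smaller than the modelled error of a difference between 2 single spots, 0.204 on the log2 scale. The 1000 probes nearest in signal had a median difference of -0.04, and 95% of them lay between -0.25 and 0.22. Actl6a mRNA was thus well above background in cells whose replacement protein was Baf53b. Small deletions in both alleles need not remove the mRNA, so the probe is no check of the deletions, and the share of its signal that came from the plasmid was not tested. Actl6a and Actl6b are paralogs, and whether their probes share signal was not tested. In Baf53a-expressing cells the Actl6b probe read 3.40, not well above background, where the Actl6a probe read 3806. These values do not address signal of Actl6b in the Actl6a probe.

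The 13 probes of the 9 genes other than Actl6b were well above background on both arrays, and 0 of them differed by 2-fold. Among all 29247 probes that passed the same flag on both arrays, 0.253% did so. In Baf53b-expressing cells 8 of the 13 probes were higher and 5 were lower, between -0.11 and 0.14 on the log2 scale, with a median of 0.02. Over all 29247 probes 49.7% were higher. The 5 probes of Actg1 were all among the 8, so these are not separate genes. The largest difference was 9.85% of the signal. All 13 differences were smaller than the modelled error, and 0 of 13 fell outside the central 95% of the 1000 probes nearest in signal. The modelled error was about 10% of the signal for every one of these spots, or 0.204 on the log2 scale for a difference. When all probes were split into 5 groups by brightness, the SD of the differences in the brightest was 0.108. That is below this error, so the count does not single out these genes. Over the 9 genes, 4 were higher and 5 lower (3 to 6 higher across settings) with a median of -0.03, against -0.0032 over the 16608 named genes measured on both arrays.

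**Figure D2:**
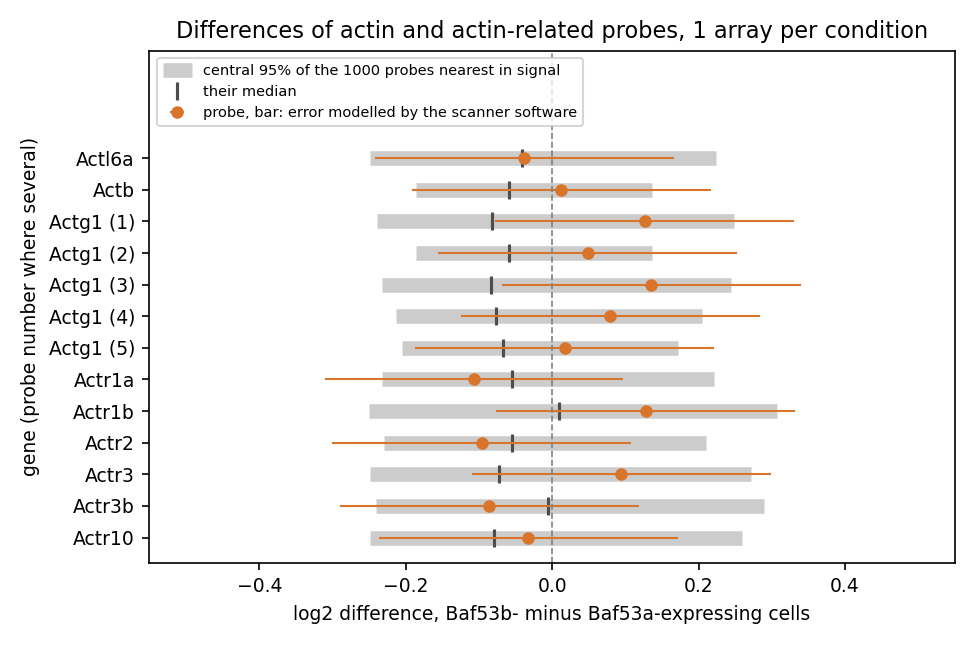
Log2 difference, Baf53b- minus Baf53a-expressing cells (x axis), of the 13 probes measured on both arrays (y axis), 1 array per condition. Points are the probes with the error modelled by the scanner software as bars, grey bands hold the central 95% of the 1000 probes nearest in signal and black ticks are their medians. Every point lies inside its band, and every error bar crosses 0. The bars have nearly the same length for every probe, 0.204 on the log2 scale to each side.

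The cytoplasmic actins, the most used building blocks of filaments in non-muscle cells, differed little between the conditions, by at most 9.85% of the signal in any of their probes. Actb, β-actin, read 264060 ± 26406 with the Baf53a plasmid and 258790 ± 25879 with the Baf53b plasmid, a difference of 0.01 on the log2 scale after scaling, and -0.04 when the arrays were centred on their medians, a shift that all probes share. Neither spot was flagged as saturated. Its neighbours in signal had a median difference of -0.06.

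Actg1, γ-actin, was the gene with the most probes, and all 5 were slightly higher in Baf53b-expressing cells. The processed signals ran from 22433 to 252969 over the 5 probes in Baf53a-expressing cells and from 23787 to 254139 in Baf53b-expressing cells. The differences on the log2 scale were 0.13, 0.05, 0.14, 0.08 and 0.02, with a mean of 0.08 and an SD over probes of 0.0504. Every one of them lay above the median of its neighbours in signal, by 0.08 to 0.22. The 5 probes read the same pair of RNA samples and are not replicates of the condition. Each difference was below the modelled error of 0.204. Actb and Actg1 have near-identical coding regions and many processed copies in the genome, so probes of either gene may share signal, and their values are uncertain to that extent.

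The dynactin members split in direction, with small differences in each. Actr1a, which encodes the Arp1 subunit that forms the filament of dynactin, read 5783 in Baf53a-expressing cells and 5217 in Baf53b-expressing cells, a difference of -0.11 on the log2 scale. Actr1b, its paralog, read 544 and 577, a difference of 0.13. Actr10, which encodes the Arp11 subunit at the pointed end of that filament, read 19957 and 18957, a difference of -0.03 that became 0.04 under quantile normalization. The 3 genes therefore did not share a direction. The central 95% of their neighbours in signal ran from -0.23 to 0.22 for Actr1a, from -0.25 to 0.31 for Actr1b and from -0.25 to 0.26 for Actr10.

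The members of the Arp2/3 complex, which nucleates branched filaments, also differed in direction. Actr2, the Arp2 subunit, read 5706 in Baf53a-expressing cells and 5184 in Baf53b-expressing cells, a difference of -0.10 on the log2 scale. Actr3, the Arp3 subunit, read 16538 and 17154, a difference of 0.09. Actr3b, another form of Arp3, read 800 and 732, a difference of -0.09. Relative to the median of the probes nearest in signal, Actr2 stood at -0.04, Actr3 at 0.17 and Actr3b at -0.08. The difference of Actr3 was thus farther from that of its neighbours than those of the other two.

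A measure of error that comes from these arrays is the spread between spots of probes printed more than once. For probes of like brightness this SD of a difference was 0.0590 for the brightest of 5 groups of probes, 0.0664 for the next and 0.0799 for the middle group. By brightness 11 of the 13 probes belonged to the first of these groups, Actr3b to the next and Actr1b to the middle. The differences of 5 of the 13 probes were smaller than the SD of their group. The share of all probes below it was not computed, so this count is not read as a trait of these genes. Over all probes of the 3 groups the differences themselves had an SD of 0.108, 0.124 and 0.154, from the brightest down. The spread between spots leaves out everything that differs between dishes, RNA preparations and hybridisations.

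**Figure D3:**
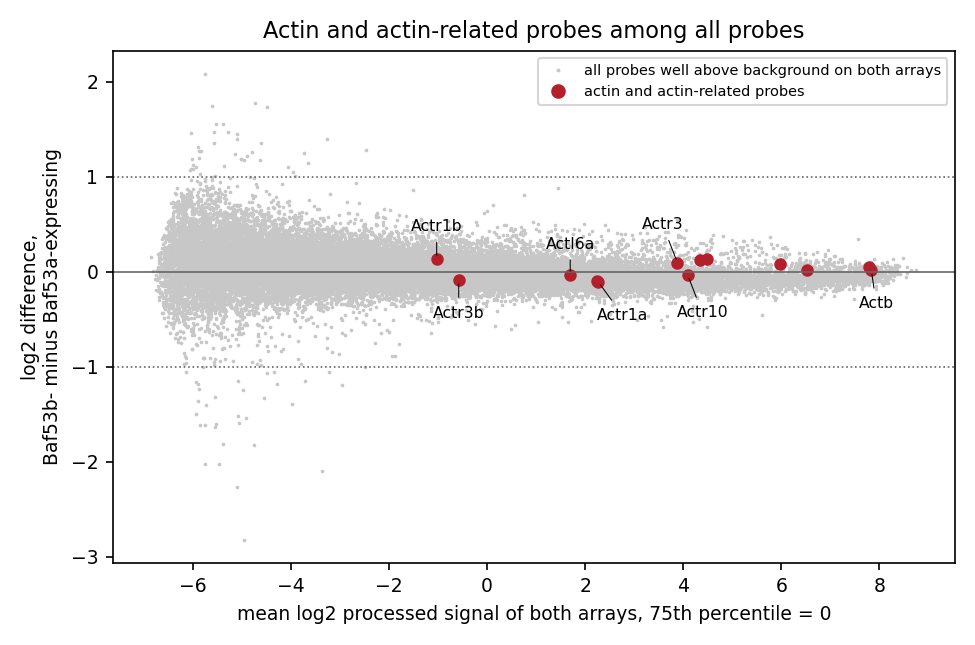
Log2 difference, Baf53b- minus Baf53a-expressing cells (y axis), against the mean log2 processed signal of both arrays (x axis, 75th percentile at 0) for the 29247 probes detected on both arrays (grey) and the 13 actin and actin-related probes (red). Dotted lines mark 2-fold, the unlabelled red points are Actg1 and Actr2 (next to Actr1a), and all red points lie between -0.11 and 0.14.

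Genes that work beside these proteins were examined as lists. No gene measured on both arrays in any of these lists differed by 2-fold, and over all genes 0.193% did. The medians of the lists are read beside a trend with brightness over all probes, whose median difference was 0.10 for the dimmest of the 5 groups and -0.06 for the brightest. The 7 other subunits of the Arp2/3 complex were all measured. On the log2 scale Arpc1b differed by -0.18, Arpc4 by -0.14, Arpc1a and Arpc2 by -0.07 each, Arpc5l by -0.03, Arpc3 by -0.02 and Arpc5 by 0.03. The list median was -0.07, with 6 lower and 1 higher, close to the median of -0.06 over the brightest of the 5 groups of probes, and quantile normalization gave -0.02 and cyclic loess -0.0084. The 9 other subunits of dynactin had a median of -0.03, with 6 lower and 3 higher, and both quantile normalization and cyclic loess gave a median of 0.0093. Dctn5, a pointed-end subunit, was lowest at -0.11, followed by Dctn3 at -0.08, Capza2 at -0.05, Dctn1, the large subunit that binds microtubules, at -0.04, Capza1 at -0.03 and Dctn6 at -0.01. Dctn2 stood at 0.02, Dctn4 at 0.03 and Capzb, of the capping heterodimer, at 0.07. The 2 probes of Capzb stood at -0.09 and 0.24, and the 4 of Capza1 ran from -0.23 to 0.16, so neither gene has a clear direction.

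The other actins were dim. Acta1, Acta2 and Actg2, the skeletal, vascular and enteric muscle forms, differed by 0.48, 0.40 and 0.02 on the log2 scale, and Actc1 and Actbl2 were not well above background on either array. The levels of Acta1 and Acta2 stood at -3.86 and -3.72 in Baf53a-expressing cells and at -3.38 and -3.32 in Baf53b-expressing cells. The 6 muscle markers, which were all measured, had a median of -0.0024 with 3 higher and 3 lower. Their summed level was 0.17 lower in log2, but this sum was mostly Tnnt1, the brightest at 1.53 in Baf53a-expressing cells. Tnnt1 differed by -0.20, Myog by -0.18 and Myh3 by -0.13, while Myl1, Tnnt2 and Des differed by 0.46, 0.38 and 0.13. Any part of muscle-like cells in the values of these actins was not tested.

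Of the 10 other actin-related and actin-like genes, 8 were measured, with a median of -0.04, or 0.02 under normexp. Those of chromatin complexes differed little, Actr5 and Actr8 of INO80 by -0.01 and -0.02 and Actr6 of SRCAP by -0.07. The remainder are known mainly from testis, and their probes were dim: Actl7a differed by 0.34, Actl7b by 0.10, Actl9 by -0.09, Actl11 by -0.31 and Actrt2 by -0.55. Actrt1 and Actrt3 were not well above background on either array.

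The 22 genes of actin assembly and turnover had a median difference of 0.00096 on the log2 scale, with 11 higher and 11 lower, and -0.05 with the arrays centred on their medians. Gsn, gelsolin, which severs and caps filaments, was highest at 0.34, and both of its probes stood at 0.34. Diaph2, a formin that elongates filaments, followed at 0.12 and Cap2, which recycles actin monomers, at 0.09. The lowest were Cap1 and Cfl1, cofilin, which takes filaments apart, at -0.14 each, and Cttn, cortactin, which steadies branches, at -0.07.

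SRF, its cofactors Mrtfa and Mrtfb, which free actin monomers hold in the cytoplasm, and their targets form the classical read-out of the actin pool, and Actg1 and Actb are among the targets. The other 11 genes had a median of -0.08, with 8 lower and 3 higher. Actg1 stood at 0.08 and Actb, whose promoter was not searched for a CArG box, at 0.01. These 11 genes do not include the dim muscle actins Acta1, Acta2 and Actg2, which differed by 0.48, 0.40 and 0.02. Srf itself differed by -0.08. Vcl, vinculin, was highest at 0.14, with Cnn1 at 0.13 and Tpm1 at 0.06, where the 5 probes of Tpm1 ran from -0.04 to 0.24. Tagln at -0.12, Myl9 at -0.09 and Mrtfa at -0.09 were among the lowest.

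The partners of Baf53a were also examined. Of 6 subunits from the families that, like Baf53, are exchanged between the BAF complexes of progenitors and neurons, Dpf2 differed by -0.18, Dpf1 by -0.08, Ss18l1 by -0.06, Phf10 by -0.02, Ss18 by -0.0018 and Dpf3 by 0.14. The progenitor forms Phf10 and Ss18 were thus near 0, and of the neuronal forms Dpf1 and Ss18l1 were lower and Dpf3 higher in Baf53b-expressing cells. Dpf2, in neither of these groups, had the largest difference of the 6. Of 10 partners in the complexes that hold Baf53a, 9 were measured, with a median of 0.02, or -0.03 with the arrays centred on their medians, and Srcap was not matched to a probe. The ATPases of BAF, Smarca4 and Smarca2, differed by 0.04 and 0.11, and those of the other complexes, Ino80 and Ep400, by -0.06 and 0.08. The 2 probes of Smarca4 differed in sign, at -0.09 and 0.17. The acetyltransferase Kat5 stood at 0.02, its scaffold Trrap at 0.04 and Myc, which binds Trrap, at 0.01. Of the paired ATPases Ruvbl1 and Ruvbl2, which assemble these complexes, Ruvbl1 stood at -0.06 and Ruvbl2 at -0.28, the lowest value in the list.

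**Figure D4:**
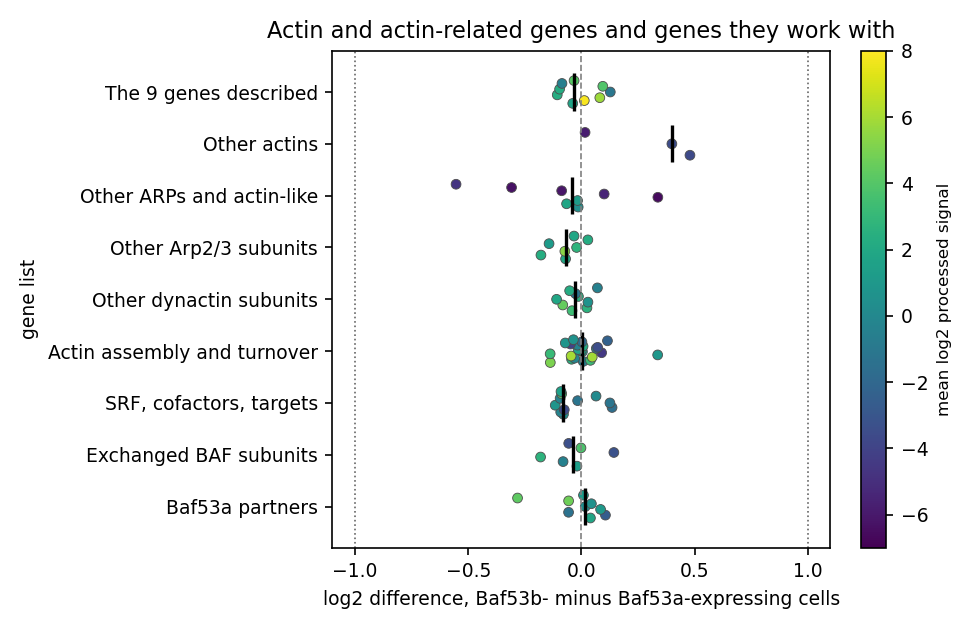
Log2 difference, Baf53b- minus Baf53a-expressing cells (x axis), of each gene measured on both arrays, for the 9 genes described and 8 lists of genes they work with (y axis), 1 array per condition. Points are genes coloured by mean log2 processed signal, black bars are medians and dotted lines mark 2-fold, and no point reaches these lines. The points farthest from 0 are dim ones, Actrt2 at -0.55 and Acta1 at 0.48.

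Markers of ES cells and of cell types they could give rise to were read beside these results. The 8 ES cell markers were all measured, with a median of -0.09 and 2 higher. Of the 10 neuronal markers, 9 were measured, 6 higher and 3 lower, with a median of 0.11 and a difference of -0.0031 in their summed level. Dcx was seen only in Baf53b-expressing cells, with a bound of 0.57. The 6 primitive endoderm markers were all higher, between 0.08 and 0.40, with a median of 0.24 and a summed level 0.24 higher. Their part in the differences above was not tested. In RNA of a whole culture, fewer cells of a type and less RNA per cell cannot be told apart.

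The sizes of the small differences depended on the scaling for all 9 genes. The settings that moved them were centring on the median, quantile normalization, cyclic loess and normexp. Other filters, flags and the value table left them almost as they were and bear little on their sign. Taking only the brightest probe of a gene moved Actg1 alone, to 0.05. Actg1 lay between 0.03 and 0.15, Actr1b between 0.08 and 0.14 and Actr3 between 0.04 and 0.15, all above 0. Actr1a lay between -0.16 and -0.06, Actr2 between -0.15 and -0.05 and Actr3b between -0.14 and -0.04, all below 0. Actl6a, from -0.09 to 0.00, and Actr10, from -0.08 to 0.04, crossed or reached 0 under quantile normalization or cyclic loess. Actb, from -0.04 to 0.09, was below 0 only with the arrays centred on their medians, which placed every difference about 0.05 lower. These settings reuse the same pair of arrays and are no replicates.

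**Figure D5:**
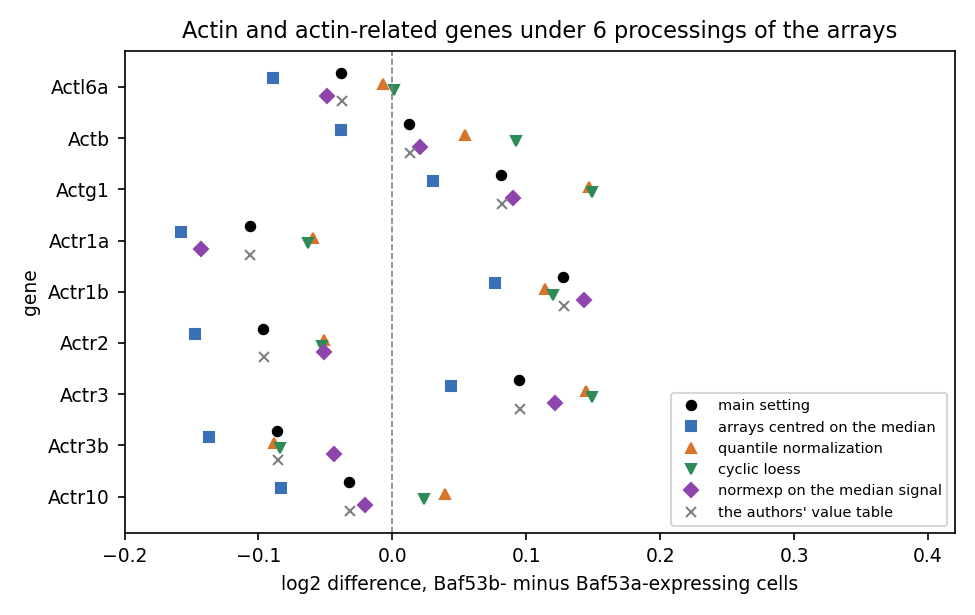
Log2 difference, Baf53b- minus Baf53a-expressing cells (x axis), of the 9 genes measured on both arrays (y axis) under 6 ways of processing the same 2 arrays, with 1 symbol for each. Actg1, Actr1b and Actr3 stay above 0 and Actr1a, Actr2 and Actr3b below 0, while Actl6a, Actb and Actr10 lie on both sides or at 0.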

How the data were processed

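The authors scanned the arrays with Agilent Feature Extraction 11.0.1.1 and deposited each spot's intensity after background subtraction, with its modelled error and flags, on a design annotated on mm9, without normalization between arrays. They also deposited a table of 30488 probes that holds ratios. Each of 30479 compared values equalled the processed signal divided by 1 number per array, 1160 or 1126, within 0.1%.

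Control spots and outlier spots were left out, the log2 intensities of a probe's remaining spots were averaged, and each array's 75th percentile, a signal of 1161 for Baf53a- and 1128 for Baf53b-expressing cells, was set to 0. Probes were called well above background if the scanner's flag was set in 50% or more of their spots. The lowest such signal was 8.45 and 9.75, which with 1 array per condition limits the precision. A gene's value was the mean of its probes well above background on both arrays. Symbols came from RefSeq accessions in a table of assembly GRCm38.p6, used for names and promoters.

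The genes and lists were chosen with earlier results of these data known. Every one of the 10 genes is named, in each list of at most 10 measured genes every gene, and in longer lists the 3 highest and the 3 lowest. Of the marker lists the counts and medians are given. No test was possible, and 2-fold was the threshold for counts. Alternatives were other scalings, normexp with an offset of 50 on the median signal, other filters and flags, and the value table. The brightest probe of each of the 9 genes was also taken alone. The calculations used Python 3.11.15, numpy 2.4.6, pandas 2.3.3, matplotlib 3.10.9 and R 4.3.3 with limma 3.58.1, and were tested on simulated data. Probe sequences and proteins were not analysed here.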

Additional observations from a re-analysis of the deposited data

How the results depend on the processing

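The count of all probes at least 2-fold apart, 40 higher and 34 lower in Baf53b-expressing cells, was sensitive to the handling of dim probes. It was 53 lower under quantile normalization, 0 higher and 2 lower under normexp, 494 higher and 260 lower with the weaker detection flag, 847 higher and 490 lower without a filter, 1 higher and 1 lower with the stricter filter, and 17 higher and 15 lower with 1 value per gene. The count of actin and actin-related probes at least 2-fold apart was 0, and 1, Actl6b, with the weaker flag and without a filter. The Actl6b bound of 3.86 on the log2 scale was 1.52 under normexp, where it equals the measured difference because the dim spot's own value exceeded the floor, and 3.58 from the authors' value table, where the lowest signal was taken over the probes it lists. Actg1 moved from 0.08 to 0.15 under quantile normalization and cyclic loess, Actb from 0.01 to 0.09 under cyclic loess, and Actr10 from -0.03 to 0.04 under quantile normalization. The median of the neuronal markers, 0.11, was 0.30 with the weaker flag or no filter and -0.15 with the stricter filter, and that of the muscle markers was -0.17 with the stricter filter. No paired analysis was possible because each condition has 1 array. For the same reason no replicate could be left out. The planned identity between the proteins was not run. Single arrays and probes of unknown position limit every value given here. Signal shared between paralogs may limit some of them as well, such as those of Actb and Actg1.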
